A study of Arabidopsis thaliana with 16 samples.

Results

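The 4 genes described here are AT1G73120, AT3G61930 and a pair of DC1-domain genes, AT1G55390 and AT1G55430. They were picked from these same arrays for large rises at low pH in the root section labelled zone 4, so their values there describe the choice and are given with no test. Each has 1 probe set that the probe annotation names for it alone, and they are 4 of the 13355 genes named in that way. AT1G73120, AT1G55390 and AT1G55430 lie on chromosome 1 and AT3G61930 lies on chromosome 3. All 4 probe sets passed the filter on dim values, AT1G73120 through the means of zones 1, 3 and 4 and not only through zone 4.

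The study asked how successive developmental stages of the Arabidopsis thaliana root respond to low pH. Columbia seedlings spent 5 days on standard medium at pH 5.7 and a further 24 h on fresh medium at either pH 5.7 or pH 4.6, and their roots, 6 days old, were then cut into 4 longitudinal zones numbered 1 to 4. The transfer media differed in pH only and both held 3 mM DMG, a buffer, so the controls shared the move to fresh medium. Each of the 8 groups of zone and pH had 2 arrays, which the labels number as replicates without saying that they came from separate cultures, so p-values measure the spread between these arrays and may be technical. What tissue lies in a numbered zone is not given in the labels.

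DC1 stands for divergent C1, a short cysteine- and histidine-rich module that binds zinc and is related to the C1 domain by which animal protein kinase C binds diacylglycerol. Flowering plants carry many genes with repeated DC1 modules, and most of their products have no known function. Roots meet acid soil with proton export, cell wall loosening and changes in ion uptake, and low pH is known to injure the root surface and to induce genes shared with other stresses. The annotation used here gives AT1G73120 and AT3G61930 no name beyond the locus, and no role is assigned to either here.

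Levels are MAS5 intensities, a linear brightness per probe set that the authors scaled array by array. The mean intensity between the 2nd and 98th percentiles was 249.86 to 249.89 on every array, and the median was 64.7 to 101. The 4 arrays that stood apart had a mean log2 plastid-genome signal over 1 unit above their own replicate: replicate 2 of zone 2 at pH 5.7, of zone 3 at both pH values and of zone 4 at pH 5.7. Results are given with and without these 4 arrays where that changes a direction or moves a difference by over 1.5 times. They are called the arrays of high plastid signal below, for the gap to their replicate and not for their level. Both zone 1 arrays at pH 4.6 had more of this signal (9.91 and 10.29) than replicate 2 of zone 4 at pH 5.7 (8.45), and were kept. Of the root hair markers listed, 2 of 5 were in the annotation, EXPA7 and EXPA18, expansins of root hair cells. Their summed intensity was highest in zone 3 at pH 5.7 (3118 to 4931).

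In zone 4, AT1G73120 went from a middling signal at pH 5.7 (percentiles 60.1 and 36.7 of the array) to one of the brightest at pH 4.6. Its intensity there was 114 and 41.7 at pH 5.7 and 7911 and 5281 at pH 4.6, in replicates 1 and 2. The ratio of the means was 84.6, and the lower acid array was 46.3 times the higher standard one. On the acid arrays the probe set ranked at the 99.3 and 98.9 percentiles of all probe sets. On the scale of log2(intensity + 16), where the added 16 damps dim values, the zone 4 difference was 6.22 ± 0.65 (SE, n = 2 arrays per group), first of the 16405 probe sets tested.

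Outside zone 4, AT1G73120 stayed dim in most arrays. In zone 1 it read 38.9 and 31.6 at pH 5.7 and 125 and 34.8 at pH 4.6. In zone 2 it read 33.5 and 57.1 at pH 5.7 and 9.81 and 39.7 at pH 4.6. In zone 3 it read 47.7 and 8.07 at pH 5.7 and 70.4 and 251 at pH 4.6. All arrays outside acid zone 4 thus lay at 125 or below except replicate 2 of zone 3 at pH 4.6, at 251. The lower acid array of zone 4 was 21.04 times that highest other array. Ordered by mean log2 level, zone 4 at pH 4.6 came first without overlap, and each of the other 7 groups overlapped its neighbour in the order.

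**Figure D1:**
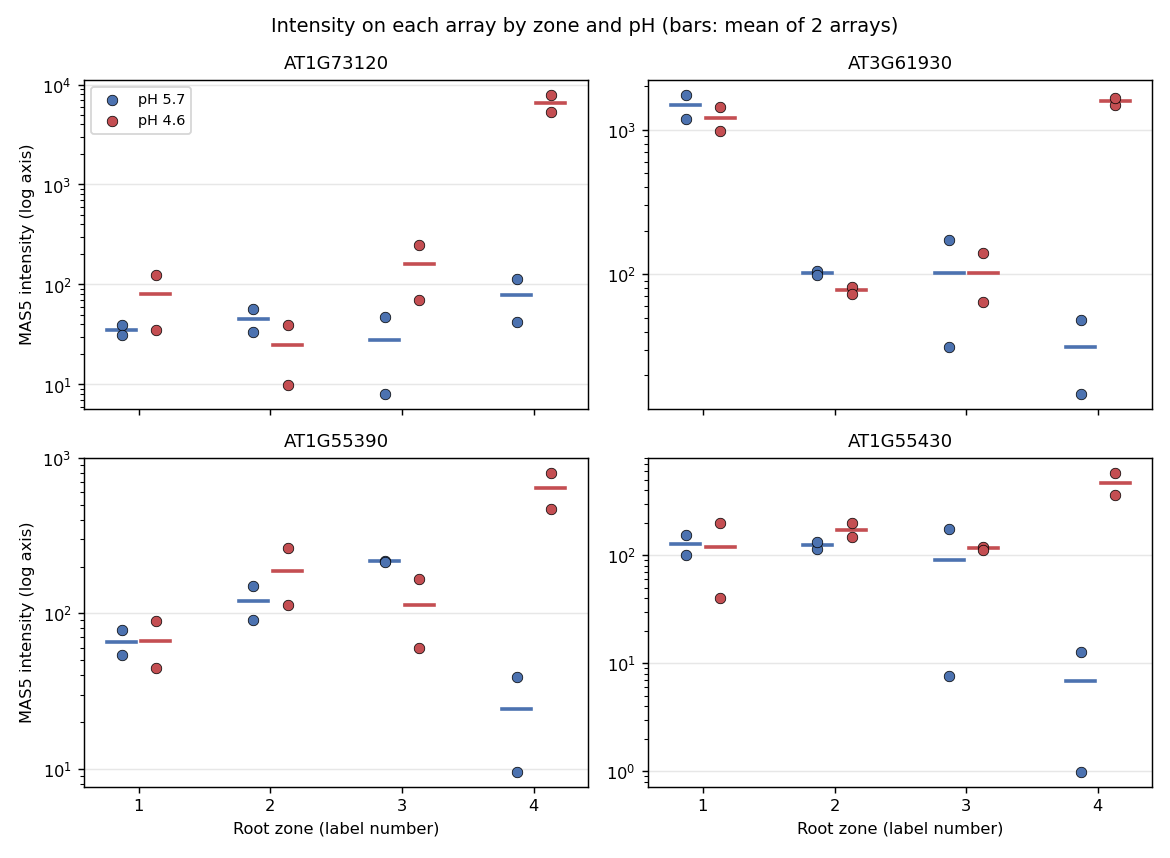
MAS5 intensity (log axis) of the 4 genes on each of the 16 arrays, by root zone, with pH 5.7 in blue and pH 4.6 in red; points are arrays and short bars are the means of 2 arrays. AT1G73120 stands at 5281 and 7911 in zone 4 at pH 4.6 alone, whereas AT3G61930 also reads 987 to 1748 in zone 1, and the DC1 pair is lowest in zone 4 at pH 5.7.

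The zone 3 arrays carried the nearest thing to a second acid difference of AT1G73120. Both acid arrays lay above both standard arrays there, and the difference was 1.96 ± 0.65 on the log2 scale (limma, unadjusted p = 0.00851, adjusted p = 0.123), short of the threshold of 0.05. Of all tested probe sets, 2.8% were called in zone 3 and 39.7% had pH groups that did not overlap there. The size rested on single arrays: without replicate 1 of zone 3 at pH 5.7 it was 2.66 (adjusted p = 0.0364), past the threshold, and without replicate 2 of zone 3 at pH 4.6 it was 1.14. Without the 4 arrays of high plastid signal, which left 1 array at each pH in zone 3, it was 0.44. In zone 1 the difference was 0.73 ± 0.65 (adjusted p = 0.677) and without replicate 1 of zone 1 at pH 4.6 it was -0.01, so the one higher acid array decided it. In zone 2 it was -0.66 ± 0.65 (adjusted p = 0.806), -1.22 without replicate 2 of that zone at pH 4.6, -0.11 without replicate 1, and -0.38 without the 4 arrays of high plastid signal. Its steps along the root, averaged over both pH values, were -0.46 ± 0.46 from zone 1 to zone 2 and 0.69 ± 0.46 from zone 2 to zone 3 (adjusted p = 0.560 and 0.256), and neither passed.

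AT3G61930 was bright in zone 1 at both pH values and in zone 4 at pH 4.6, and much lower in the other 5 groups. It lay near the middle of the array in zones 2 and 3 (mean percentiles 49.8 to 56.1) and lower in zone 4 at pH 5.7 (32.2). In zone 1 its intensity was 1748 and 1195 at pH 5.7 and 1430.1 and 987 at pH 4.6. In zone 2 it was 104 and 98.3 at pH 5.7 and 81.6 and 72.9 at pH 4.6. All 4 zone 1 arrays lay above all 4 zone 2 arrays, and the log2 level fell by 3.67 ± 0.38 between these zones, averaged over both pH values (limma, adjusted p = 1.41e-05). This was the only called difference among the 4 genes in any comparison that did not use zone 4. Among all tested probe sets 14.4% were called in this step. The fall kept its call when any single array was left out, with values from -3.80 to -3.53.

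At pH 5.7 the level of AT3G61930 was lowest in zone 4, and at pH 4.6 it was within the range of zone 1 at pH 5.7. In zone 3 it read 31.5 and 172 at pH 5.7 and 63.9 and 139 at pH 4.6. In zone 4 it read 14.8 and 48.2 at pH 5.7 and 1489.7 and 1655 at pH 4.6. The ratio of the zone 4 means was 49.9, and the log2 difference of 5.16 ± 0.53 ranked 3 from the highest of the 16405. The acid zone 4 arrays lay inside the range of zone 1 at pH 5.7, and the highest of the remaining 10 arrays was 172. The order of mean log2 levels was zone 4 at pH 4.6, zone 1 at pH 5.7 and zone 1 at pH 4.6, which overlapped in turn, then without overlap zones 2 and 3 with overlapping arrays, and last zone 4 at pH 5.7, which overlapped zone 3 at that pH.

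No acid difference of AT3G61930 passed in the zones that the choice did not use. It was -0.28 ± 0.53 in zone 1 (limma, adjusted p = 0.858), -0.33 ± 0.53 in zone 2 (0.898) and 0.24 ± 0.53 in zone 3 (0.865). In zone 2 both acid arrays were lower than both standard arrays, in a zone where the pH groups did not overlap for 42% of tested probe sets. The zone 3 value was set by the spread of the standard arrays, being -0.76 without replicate 1 and 1.23 without replicate 2 of zone 3 at pH 5.7. Without the 4 arrays of high plastid signal, which left 1 array at each pH in zone 3, it was 0.75. The zone 1 value was -0.01 without replicate 1 of zone 1 at pH 5.7 and -0.55 without replicate 2. The step from zone 2 to zone 3 was -0.03 ± 0.38 (adjusted p = 0.966), and -0.78 without the 4 arrays of high plastid signal.

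The pattern of AT3G61930, with all 4 zone 1 arrays and both acid zone 4 arrays above the other 10 arrays, was shared by 40 of the 16405 probe sets, or 0.244%. It was read off the same zone 4 arrays that chose the gene, so the share is a description. Of these, 27 probe sets had a name, AT3G61930 included. Among them SAG101, a lipase-like partner of the immune regulator EDS1, read 286 and 141 in acid zone 4, with 128 as the highest of the other 10 arrays. XPO1B, a nuclear exportin, read 148 and 174 there, with 122 as the highest of the other 10. For AT3G61930 the lower acid zone 4 array (1489.7) stood much further above the highest of the other 10 (172).

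The DC1 genes AT1G55390 and AT1G55430 had middling levels in zones 1 to 3 and were at their lowest in zone 4 at pH 5.7. In that group AT1G55390 read 9.56 and 38.8, at the 19.1 and 34.9 percentiles of the array. AT1G55430 read 0.984 and 12.7 there, at the 1.54 and 16.8 percentiles. At pH 4.6 the zone 4 arrays read 804 and 469.9 for AT1G55390. They read 584 and 361 for AT1G55430. These were the highest levels of either gene on the 16 arrays, without overlap, though the lower acid array exceeded the highest other array only 1.79 times for AT1G55390 and 1.80 times for AT1G55430. In the order of mean log2 levels, zone 4 at pH 5.7 came last for both genes, apart from all other arrays for AT1G55390 and overlapping zone 3 at pH 5.7 for AT1G55430. The 6 groups of zones 1 to 3 lay between them, each overlapping the next in the order.

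The ratio of the zone 4 means was 26.3 for AT1G55390 and 68.9 for AT1G55430. The standard readings were dim and no detection call was used, so these ratios and the ranks that follow have no firm size. The log2 differences were 4.08 ± 0.53, the tenth highest of the 16405, and 4.43 ± 0.75, the fifth highest. Much of each ratio came from the low standard arrays: with 64 added in place of 16 the differences were 2.97 and 2.89, and with 1 added they were 4.91 and 6.46. At pH 5.7 the log2 level went by -2.64 ± 0.53 and -1.60 ± 0.75 from zone 3 to zone 4, for AT1G55390 and AT1G55430. At pH 4.6 it went by 2.42 ± 0.53 and 1.85 ± 0.75, so the step into zone 4 had opposite signs at the 2 pH values. For AT1G73120 the same step was positive at both, 1.15 ± 0.65 at pH 5.7 and 5.42 ± 0.65 at pH 4.6. For AT3G61930 it was -1.09 ± 0.53 and 3.83 ± 0.53. These steps use the zone 4 arrays and carry no test.

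Across zones 1 to 3, AT1G55390 ranged from 44.3 to 263. In zone 1 it read 53.7 and 77.8 at pH 5.7 and 89.2 and 44.3 at pH 4.6. In zone 2 it read 90.02 and 150.2 at pH 5.7 and 263 and 114 at pH 4.6. The pH groups of both zones overlapped. In zone 3 it read 218 and 216 at pH 5.7 and 60.05 and 168 at pH 4.6, both acid arrays below both standard arrays. The lowest zone 2 reading (90.02) was just above the highest zone 1 reading (89.2), and zone 3 overlapped both zones. The mean step from zone 1 to zone 2, 0.99 ± 0.37, missed the threshold (limma, unadjusted p = 0.0180, adjusted p = 0.0918). The step from zone 2 to zone 3 was 0.06 ± 0.37 (adjusted p = 0.915), with a sign that depended on the arrays and the centring used.

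AT1G55390 had acid differences of -0.02 ± 0.53 in zone 1 and 0.52 ± 0.53 in zone 2 (adjusted p = 0.992 and 0.817). In zone 3 the difference was -0.98 ± 0.53 (adjusted p = 0.370), the reverse of its sign in zone 4. Without replicate 1 of zone 3 at pH 4.6 it was -0.34 and without replicate 2 it was -1.61. Without the 4 arrays of high plastid signal the differences in zones 2 and 3 were 0.84 and -1.62. These are given as sizes only, since 1 array was left at pH 5.7 in zone 2 and 1 at each pH in zone 3. The zone 1 value ranged from -0.42 to 0.38 as either acid array of that zone was left out. The zone 2 value ranged likewise from -0.03 to 1.07.

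AT1G55430 spread widely between replicates in zones 1 and 3. In zone 1 it read 101 and 155 at pH 5.7 and 201 and 40.6 at pH 4.6. In zone 2 it read 114 and 134 at pH 5.7 and 199.9 and 147 at pH 4.6, the only zone of these where the pH groups did not overlap. In zone 3 it read 175 and 7.62 at pH 5.7 and 119 and 113 at pH 4.6. The reading of 7.62 came from replicate 2 of zone 3 at pH 5.7, an array of high plastid signal. The acid differences were -0.35 ± 0.75, 0.43 ± 0.75 and 0.97 ± 0.75 in zones 1, 2 and 3 (limma, adjusted p = 0.874, 0.911 and 0.560). In zone 1 the value was -1.32 without replicate 1 and 0.62 without replicate 2 of the acid arrays.

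The zone 3 result for AT1G55430 turned on the standard array that was kept. Without replicate 1 of zone 3 at pH 5.7 the difference was 2.48 (adjusted p = 0.0251), past the threshold, and without replicate 2 it was -0.53. Without all 4 arrays of high plastid signal, which left 1 array at each pH in zone 3, it was -0.51. The step from zone 2 to zone 3 behaved likewise: it was -0.78 ± 0.53 (adjusted p = 0.264), -1.54 without that replicate 1 (adjusted p = 0.00750) and -0.03 without that replicate 2. The step from zone 1 to zone 2 was 0.37 ± 0.53 (adjusted p = 0.696), from -0.11 without replicate 2 to 0.86 without replicate 1 of zone 1 at pH 4.6.

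**Figure D2:**
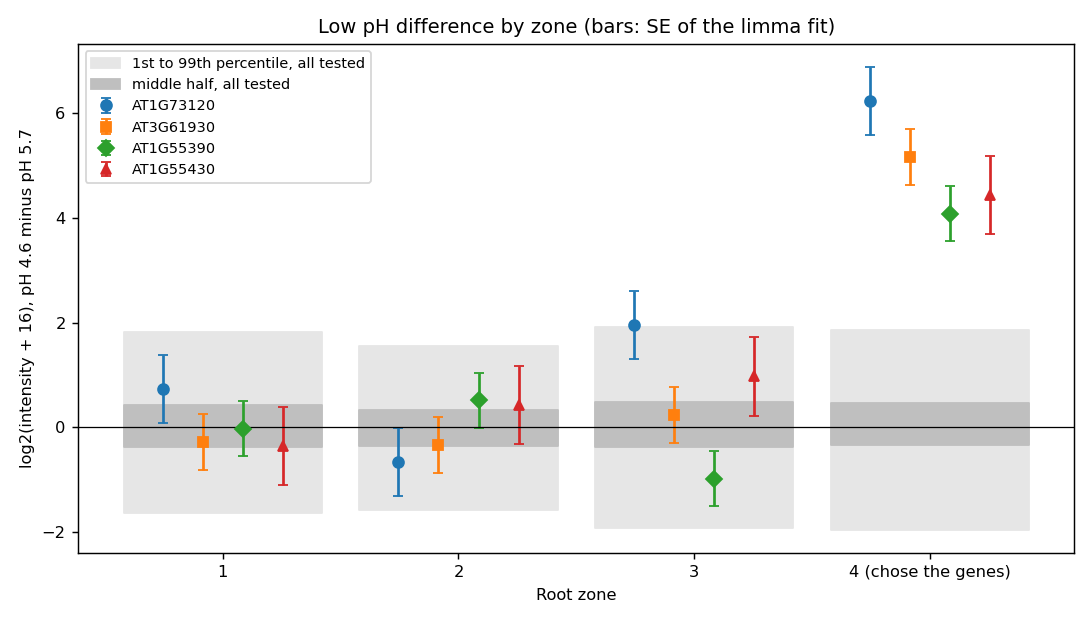
Difference in log2(intensity + 16) between pH 4.6 and pH 5.7 in each zone for the 4 genes (points, with the SE of the limma fit), over grey bands that hold the middle and the 1st to 99th percentiles of all tested probe sets. In zones 1 to 3 the points lie between -0.98 and 1.96 with error bars that mostly reach 0, and in zone 4, which chose the genes, they lie between 4.08 and 6.22.

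Set side by side over the zones that the choice did not use, none of the 4 genes passed a test for acid. Limma called 0 of 4 in zone 1 (0 at unadjusted p under 0.05), where 0.683% of all tested probe sets were called. It called 0 of 4 in zone 2 (0 unadjusted), where 0.384% were called, and 0 of 4 in zone 3 (1 unadjusted, AT1G73120), where 2.8% were called. The mean acid effect of zones 1 to 3 called 0 of 4 (0 unadjusted), against 3.63% of all, with values of 0.67 ± 0.37 for AT1G73120, -0.13 ± 0.31 for AT3G61930, -0.16 ± 0.30 for AT1G55390 and 0.35 ± 0.43 for AT1G55430. Without the 4 arrays of high plastid signal these means were 0.26, 0.03, -0.27 and -0.11 in the same order. The median of the 4 differences was -0.15 in zone 1, 0.05 in zone 2 and 0.61 in zone 3, where the medians over all tested probe sets were 0.02, -0.01 and 0.06.

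Limma's F-test of whether the acid effect differed among zones 1, 2 and 3 called 0 of 4 genes (1 unadjusted, AT1G73120, whose adjusted p was 0.317), while 0.597% of all were called. The step from zone 2 to zone 3 also called 0 of 4 (0 unadjusted) although 38.5% of all tested probe sets changed there. In zone 1 the pH groups of 0 of 4 genes stood apart, while 48.8% of all did. In zone 2 they stood apart for 2 of 4 (42% of all) and in zone 3 for 2 of 4 (39.7% of all), in each zone 1 gene higher and 1 lower at pH 4.6. The arrays of all 4 genes stood apart in zone 4, where 51.7% of all did and where limma called 2.91% of all. Both acid zone 4 arrays lay above all other 14 arrays for AT1G73120, AT1G55390 and AT1G55430 and for 3.64% of all tested probe sets. Zone 4 shares of the 4 genes follow from how they were picked.

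Values bearing on RNA quality and cell makeup in zone 4 were as follows. The log2 ratio of the 3' to the 5' GAPDH control probe sets, a sign of RNA quality, was 3.22 and 3.62 at pH 5.7 and 5.58 and 4.86 at pH 4.6. The same ratio for ubiquitin was 2.25 and 2.55 against 3.23 and 2.76, and for actin, with overlapping arrays, 4.609 and 4.804 against 4.63 and 5.00. The summed intensity of EXPA7 and EXPA18 was 241 to 540 at pH 5.7 and 14.3 to 48.6 at pH 4.6, and both genes fell (limma, -2.36 ± 0.61 and -2.90 ± 0.61 on the log2 scale, adjusted p = 0.0485 and 0.0163). GSO1, a receptor kinase of the endodermal barrier and the only one of 5 endodermis markers in the annotation, read 403 to 439 at pH 5.7 and 772 to 804 at pH 4.6, a difference that was not called (0.88 on the log2 scale, adjusted p = 0.275). The 2 of 4 shoot markers in the annotation summed to 766 to 1314 and to 1159 to 1216, and the 2 of 6 meristem markers to 449 to 531 and to 331 to 475, with overlap in both lists. None of the suberin, xylem, phloem or root cap markers listed was in the annotation. The fall of EXPA7 and EXPA18 was not confined to zone 4. In zone 3 their low pH differences were -2.62 ± 0.61 and -2.74 ± 0.61 (limma, adjusted p = 0.0302 and 0.0248). That of GSO1 was -0.96 ± 0.39 in zone 3, not called (adjusted p = 0.218). The part of RNA quality and of cell makeup in the zone 4 differences was not tested, and in bulk tissue fewer cells of a type and less RNA per cell cannot be told apart. Without the 4 arrays of high plastid signal the zone 4 differences were 5.64 for AT1G73120, 5.69 for AT3G61930, 4.63 for AT1G55390 and 4.81 for AT1G55430.

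The correlations among the 4 genes were all lower, some of them negative, without the zone 4 arrays that chose them. Over the 16 arrays the DC1 pair correlated with Pearson r of 0.71, which was 0.53 over the 14 arrays without acid zone 4 and 0.04 over the 12 arrays of zones 1 to 3. AT1G73120 and AT1G55390 correlated at 0.58, -0.30 and -0.17 over the same sets of arrays. AT3G61930 and AT1G55390 correlated at 0.30, -0.06 and -0.63. The remaining 3 pairs lay between 0.45 and 0.55 over 16 arrays and between -0.12 and 0.37 over the 12. The arrays share groups and zones, so these values are descriptions.

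For each gene the 5 named probe sets most like it, by Pearson r of log2(intensity + 16) over the 16 arrays, were listed. These arrays include the zone 4 arrays that chose the 4 genes. A zone 4 rise shared with the listed genes is thus partly built into the listing and is a description. Genes most like AT1G73120 were AT4G09110 (r = 0.88), AT5G43450 (0.87), AT2G43670, AT1G24430 and AT5G05200 (0.86 each). AT4G09110 read 814 and 908 in acid zone 4 against 57.1 and 45.8 at pH 5.7. AT5G43450 read 1738 and 1440.2 there against 128 and 106. All 5 had their highest group mean in acid zone 4, and the means of AT4G09110 and AT2G43670 were next highest in acid zone 3 and standard zone 4.

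Genes most like AT3G61930 were AT3G57160 (r = 0.86), SLY2 (AT5G48170; 0.85), which encodes an F-box protein related to a gibberellin signalling component, AT1G29980, AT5G65490 and the class XI myosin gene XI-I (AT4G33200), at 0.84 each. Their highest group was zone 1 and not acid zone 4. SLY2, for example, averaged 194 and 320.4 in zone 1 at pH 5.7 and 4.6 and 166 in acid zone 4. AT3G61930 itself averaged 1572 in acid zone 4 and 1471 and 1208 in zone 1 at pH 5.7 and 4.6.

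The DC1 genes shared AT2G02680 among the 5 genes most like each (r = 0.82 for both). It read 661 and 388 in acid zone 4 and 30.3 and 61.9 in zone 4 at pH 5.7. AT1G55390 was otherwise most like AT5G01740 (0.86), AT3G05320, AT4G27652 (0.85 each) and AT5G54030 (0.83). AT1G55430 was otherwise most like AT2G02630 (0.90), AT3G11370 (0.89), AT5G51410 (0.83) and AT5G16680 (0.81). AT2G02630 read 605 and 386 in acid zone 4 against 12.03 and 82.1 at pH 5.7, and AT3G11370 read 411 and 324 against 3.11 and 40.2. Like the DC1 pair, AT2G02630, AT3G11370 and AT2G02680 had their lowest group mean in zone 4 at pH 5.7 and their highest in zone 4 at pH 4.6. Product descriptions were not used here, so whether these genes also encode DC1 modules was not examined.

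**Figure D3:**
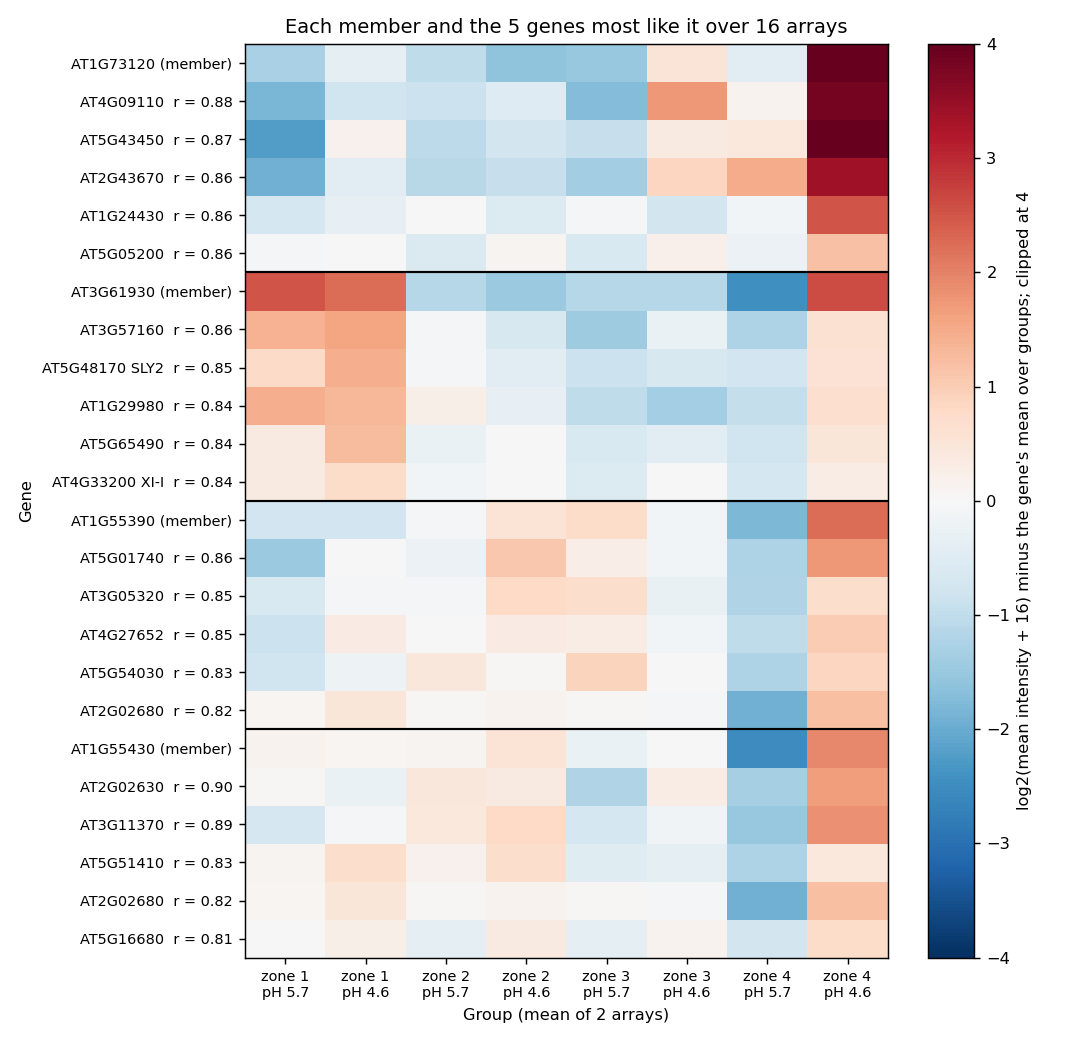
Group means of each of the 4 genes and of the 5 genes most like it over the 16 arrays, as log2(mean intensity + 16) minus the gene's own mean over the 8 groups (red higher, blue lower, clipped at 4). The AT1G73120 block is red in acid zone 4, the AT3G61930 block in zone 1 and acid zone 4, and the blocks of the DC1 genes change from blue at pH 5.7 to red at pH 4.6 in zone 4. The zone 4 arrays were among those used to list the genes, so this likeness is partly built in.

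The neighbours of the 4 genes on the chromosome were examined for the same zone 4 difference. Within 5 genes on each side lie 33 other genes, of which 14 have a probe set named for them alone and 9 passed the filter on dim values. In zone 4, limma called 0 of these 9 (0 at unadjusted p under 0.05), with differences from -0.34 to 0.97. Since 2.91% of all tested probe sets were called there, a count of 0 among 9 is near the background. Next to AT1G73120, AT1G73110 read 22.0 and 40.03 in acid zone 4 against 38.7 and 12.5 at pH 5.7, and AT1G73130 read 136 and 133 against 84.5 and 109. The highest readings of these genes on any array were 233 and 136.

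AT1G55390 and AT1G55430 are separated by 3 genes. Of these AT1G55400 is annotated as a pseudogene and AT1G55410 as a transcribed pseudogene, and AT1G55420 (EDA11) has no probe set of its own here. AT1G55410 was too dim to be tested and read 61.4 and 29.9 in acid zone 4 against 21.05 and 4.36 at pH 5.7. AT1G55440, directly after AT1G55430, was also too dim, with 66.1 as its highest reading on any array. Probe sets of near-identical copies can share signal, and whether these probe sets do was not tested.

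Along the root, 2 of the 9 neighbours were called from zone 1 to zone 2 (14.4% of all) and 3 from zone 2 to zone 3 (38.5% of all), counts near those shares. AT1G55450 rose by 2.39 ± 0.27 from zone 2 to zone 3, and AT1G73160 fell by 2.45 ± 0.30 and AT1G73090 by 1.24 ± 0.41 in that step (limma, called). From zone 1 to zone 2, AT1G73090 fell by 1.37 ± 0.41 (adjusted p = 0.0352) and AT3G61960 by 0.83 ± 0.21 (adjusted p = 0.0129), the latter in the same direction as AT3G61930. In that step 0 to 2 neighbours were called as single arrays were left out, 0 with each array centred on its median, and 1 with 1 added, with quantile normalization or without the 4 arrays of high plastid signal. No neighbour was called for acid in zones 1, 2 or 3 (1, 1 and 2 at unadjusted p under 0.05).

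**Figure D4:**
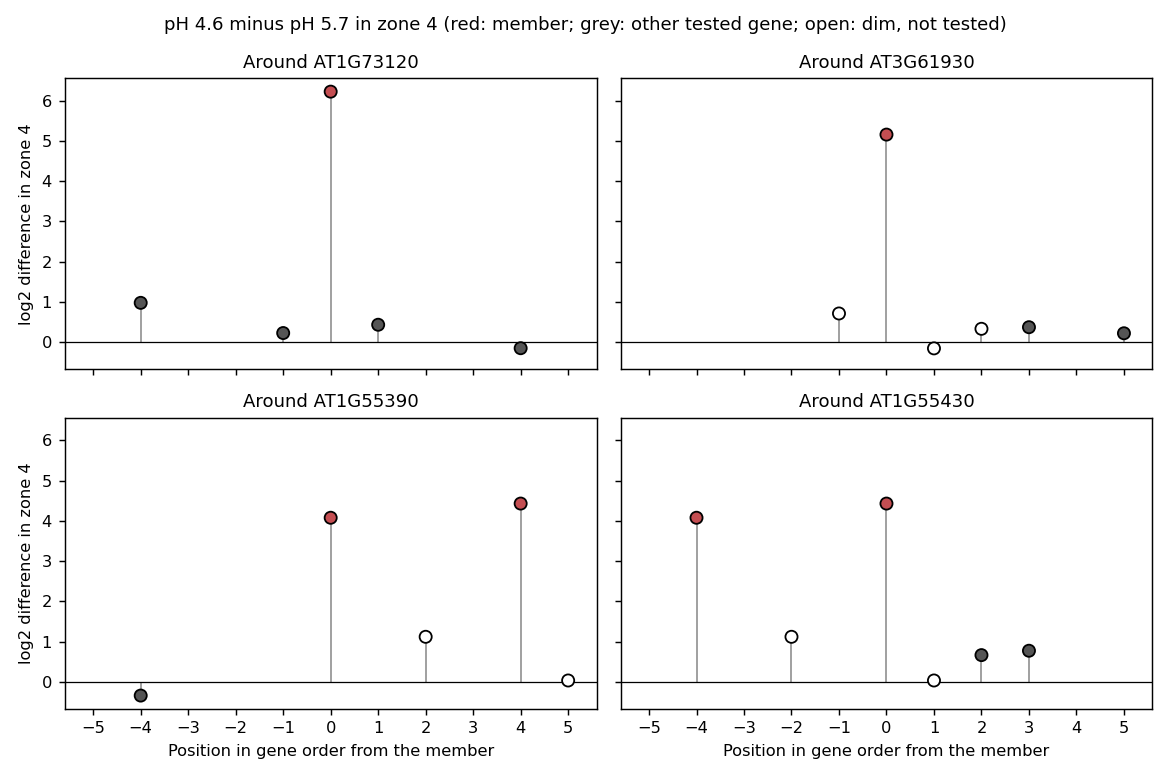
Difference in log2(intensity + 16) between pH 4.6 and pH 5.7 in zone 4, by position in gene order from each of the 4 genes (red: one of the 4 genes; grey: other tested gene; open: too dim to be tested). The red points lie between 4.08 and 6.22, and the 14 neighbours with a probe set lie between -0.34 and 1.12.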

How the data were processed

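Total RNA of 16 root samples was amplified in the Affymetrix protocol with its 2 rounds of amplification and hybridised as biotin-labelled cRNA, per the labels' protocols. The authors deposited 1 linear intensity per probe set and array, made with MAS5, per the submitters' processing notes, which give no version. No detection call was used. The table holds 22810 probe sets; 64 controls were left out of the tests.

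Probe sets were named through a platform annotation (13513 with a single gene, 503 with several, 8730 not listed there), updated through a RefSeq table of assembly TAIR10.1 that held 13436 of them. That table gave the gene order. No coordinates are printed. Product descriptions and sequences were not used here, so the planned list of other C1-domain genes could not be built.

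The analysis took log2(intensity + 16). A probe set was tested if any zone's mean was at or above the 40th percentile of the zone means (5.95), as 16405 were. One limma 3.58.1 model in R 4.3.3 (lmFit, eBayes with intensity trend) had 8 group means, with 8 residual and 7.44 prior degrees of freedom. Contrasts were pH 4.6 minus pH 5.7 by zone, their mean and interaction over zones 1 to 3, and steps between zones averaged over pH. Tests were two-sided and adjusted by Benjamini-Hochberg over all 16405, with a threshold of 0.05. The number of arrays limits the precision, and an exact permutation test of 2 against 2 cannot go below p = 0.333. Tests were checked on simulated data.

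The 4 genes, the gene lists and the rules were chosen with earlier results of these data known. Named besides the 4 genes are the 5 neighbours on each side and the 5 most correlated named probe sets. SAG101, XPO1B and the genes named under other observations were chosen after their values were seen. Alternatives were the pseudocount, filter, scaling, trend, replicate block, arrays in the fit and leaving out arrays.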

Additional observations from a re-analysis of the deposited data

Results flagged for a closer look

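AT1G55390 had both acid arrays below both standard arrays in zone 3, where 39.7% of tested probe sets did not overlap, and above them in zone 4, where 51.7% did not. Its low pH difference was -0.98 ± 0.53 in zone 3 (limma, adjusted p = 0.370, and -1.61 to -0.34 with 1 array left out) and 4.08 ± 0.53 in zone 4, so the zones differed by 5.05 on the log2 scale. The difference was not tested, because zone 4 chose the gene.

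AT3G61930 had both acid arrays below both standard arrays in zone 2, where 42% did not overlap, and above them in zone 4. Its low pH difference was -0.33 ± 0.53 in zone 2 (limma, adjusted p = 0.898) and 5.16 ± 0.53 in zone 4, a gap of 5.49 on the log2 scale. This difference was likewise not tested.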

How the results depend on the processing

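Of 700 recomputed values of their 28 tested results, 670 kept direction and call, 27 changed sign and 3 passed the threshold, the zone 3 differences of AT1G73120 and AT1G55430 and the zone 2 to 3 step of AT1G55430, given above. No call was lost, but only 1 of the 28 was called, the fall of AT3G61930 from zone 1 to zone 2. Settings that leave a contrast's own arrays unchanged also cannot move its value. The cause was not tested, except that leaving out arrays leaves fewer samples and lets 1 array stand for a group, assumed to vary like the others. Dim signal limits the DC1 pair and AT3G61930, whose zone 4 values at pH 5.7 lie near the added 16.

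With 1 or 64 added, the zone 4 difference of AT3G61930 was 5.82 or 4.12. With 64 added the zone 2 to 3 step of AT3G61930 was 0.027. Centring each array on its median gave the AT1G55390 step -0.024. Without the 4 arrays of high plastid signal that step was -0.091 and the AT1G55430 step 0.037, the AT1G55430 zone 3 difference was -0.51 and its mean over zones 1 to 3 -0.11, and that mean was 0.034 for AT3G61930.

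Leaving out 1 array at a time gave these ranges of the acid difference. In zone 1 they were -0.42 to 0.38 (AT1G55390), -1.32 to 0.62 (AT1G55430) and -0.0092 to 1.46 (AT1G73120). The zone 2 range was -0.033 to 1.07 for AT1G55390 and -1.22 to -0.11 for AT1G73120. In zone 3 they were -0.53 to 2.48 (AT1G55430), 1.14 to 2.77 (AT1G73120) and -0.76 to 1.23 (AT3G61930). The mean over zones 1 to 3 ranged from -0.37 to 0.052 (AT1G55390), -0.15 to 0.85 (AT1G55430) and -0.46 to 0.21 (AT3G61930). The zone 1 to 2 step of AT1G55430 ranged from -0.11 to 0.86, and the zone 2 to 3 steps from -0.26 to 0.38 (AT1G55390), -1.54 to -0.029 (AT1G55430) and -0.52 to 0.47 (AT3G61930).

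Counts of called probe sets moved more. In zone 1 there were 112 (50 higher, 62 lower), and 61 (20, 41) with median centring, 55 with no trend, 367 without the high plastid arrays and 49 with only that zone's arrays, or 33 (without replicate 1 of zone 1 at pH 5.7) to 309 (without replicate 2 of zone 1 at pH 4.6). In zone 2 there were 63, and 26 with no trend, 15 without the high plastid arrays and 119 with only that zone's arrays, or 15 (without replicate 2 at pH 4.6) to 158 (without replicate 2 of zone 3 at pH 5.7). In zone 3 there were 459, and 294 with 1 added, 266 with median centring, 89 without the high plastid arrays and 63 with only that zone's arrays, or 93 (without replicate 1 at pH 4.6) to 1550 (without replicate 1 at pH 5.7). In zone 4 there were 477, and 294 without the high plastid arrays and 989 with only that zone's arrays, or 66 (without replicate 1 at pH 4.6) to 802 (without replicate 2 of zone 3 at pH 5.7). For the mean of zones 1 to 3 there were 595, and 361 with median centring and 360 with only those arrays, or 360 (without replicate 1 of zone 3 at pH 4.6) to 1048 (without replicate 1 of zone 3 at pH 5.7). For the interaction there were 98, and 60 with 1 added, 203 with 64 added, 10 without the high plastid arrays and 40 with only those arrays, or 26 (without replicate 2 of zone 3 at pH 4.6) to 839 (without replicate 1 of zone 3 at pH 5.7). The zone 1 to 2 step ranged from 1305 (without replicate 2 of zone 2 at pH 4.6) to 3012 (without replicate 2 of zone 3 at pH 5.7).

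Over 28 pairs of groups, the deviations between replicates 1 and 2 correlated from -0.25 to 0.41, median 0.01. Of these pairs 13 lay below 0 and 9 above 0.1. The 4 arrays of high plastid signal were all replicate 2. Whether equal replicate numbers mark samples handled together is not given in the labels and cannot be told from these correlations. With the replicate number as a block the zone 4 count was 532 and the zone 3 count 456, the AT3G61930 fall from zone 1 to 2 had adjusted p = 1.23e-05, the AT1G73120 zone 3 difference had adjusted p = 0.126, and no call of the 4 genes changed.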

Other observations

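Besides AT3G61930, the named probe sets with all zone 1 arrays and both acid zone 4 arrays above the other 10 included AT1G02810, with 3173 and 2679.6 in acid zone 4 and 2476 as the highest of the other 10. They also included NRPB12, a subunit of RNA polymerase II, with 4097 and 3469 in acid zone 4 and 3143 as the highest of the other 10. AT2G36950 read 1619 and 2494 there, with 1558 as the highest of the other 10. AT1G29980, also among the genes most like AT3G61930, read 462 and 413 with 349 as the highest of the other 10.

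Among the 12 probe sets with the highest low pH differences in zone 4, the 4 genes held ranks 1, 3, 5 and 10. The named genes directly around AT1G55390 in that order were AT1G26250 at 4.13 ± 0.75 and AT3G28510 at 3.99 ± 0.64, and 4 of the 12 have no single gene name here.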
